A study of Rattus norvegicus with 18 samples.

Results

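Eph, ephrin, Slit and Robo genes were followed in cultured rat aorta exposed to VEGF or Ang1. The 8 genes are Ephb1, Efnb1, Efnb2, Efna1, Robo1, Robo2, Slit2 and Slit3, read by every probe set annotated to one of them alone. The set was chosen by gene name with earlier results of these arrays known, in which Robo2 had been listed for its low array B signal after VEGF. The differences of the members are therefore given as descriptions. Where p-values of the model over all probe sets are counted below, the members' share stands beside that of all probe sets and is not read as support. Of the 8 genes, 7 had a probe set, 13 probe sets in all, and the array types together held 13810 named genes. Array A held 8 of the 13 and array B held 5. No probe set was named to Efnb2 alone in the annotation used, so Efnb2 was not analysed here.

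The proteins of these genes guide growing axons and vessel sprouts. Ephs are receptor tyrosine kinases and their ligands, the ephrins, sit in the membrane of the neighbouring cell, so that contact between cells can signal both ways. Slits are secreted proteins, and Robos are the receptors through which they steer or repel growing tips. In blood vessels, ephrin-B2 and Eph receptors are known for arterial and venous identity and for contacts of endothelium with mural cells, and Slit2 with Robo1 for endothelial migration and sprouting.

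The RNAs came from rings of thoracic aorta, 2 mm long, of male Fisher 344 rats aged 5 weeks, an explant culture known for outgrowth of endothelial sprouts together with mural and stromal cells. All rings were kept for 14 days in serum-free EBM medium. On day 13 a first group received human VEGF at 10 ng/ml. The second received human angiopoietin-1 (Ang1) at 100 ng/ml together with a poly-His antibody at 5 µg/ml, and the third was left untreated. No group received the antibody alone, so Ang1 and its antibody cannot be told apart. RNA was taken 20 h later per the labels and 18 h later per the design text. Each RNA pooled 4 to 6 rings, and each group had 3 RNAs, each read on 2 array types, Affymetrix RAE230A (array A) and RAE230B (array B). The labels name a 2-cycle method for the labelling of untreated replicate 1 and only a standard one for the other 8 RNAs.

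Of the 9 RNAs, Ang1 replicate 2 and untreated replicate 2 stood apart. On array A their median correlation with the other arrays was 0.817 to 0.899, against 0.934 to 0.965 for the other 7 RNAs. On array B it was 0.662 to 0.848, against 0.882 to 0.909. The array B file of Ang1 replicate 3 carried another scale, with a trimmed mean of 94.8 where 17 arrays had 250.03 to 250.09. Its deposited signals are given as they stand, with the value scaled to 250 beside them. For actin, the signal near the 3' end over that near the 5' end, a sign of RNA length, was 5.24 to 11.9 after VEGF, 1.25 to 7.38 after Ang1 and 3.02 to 5.08 in untreated RNAs on array B. On array A it was 8.79 to 12.4, 6.18 to 8.29 and 1.86 to 7.70 in the same groups. The lowest Ang1 ratio on array B was that of replicate 2, and Ang1 replicates 1 and 3 had 7.38 and 6.75. On both array types every treated RNA but Ang1 replicate 2 lay above every untreated one. The GAPDH signal near the 3' end on array A was 446.9 in Ang1 replicate 2 and 64.4 in untreated replicate 2. The other 7 RNAs had 2217.8 to 3246.8 there. The part of RNA quality in the values below was not tested.

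The start sites show which sequence lies before the genes that differed most between groups. The 250 bases before the annotated start of Ephb1 and Robo2, the genes with a probe set below all untreated values after Ang1 and with a promoter window, are printed from RefSeq (rat build GRCr8). Efna1, which showed no such difference, is printed beside them. Capitals mark matches on either strand to any of 5 motifs. The motif of FOXO factors was searched as GTAAACA. The CCAAT box was searched by the letters of its name. For the TATA box the letters were TATAAA. For the GC box, a site of Sp factors, they were GGGCGG. For the core site of ETS factors they were CGGAAG. Neighbouring GC boxes can share bases.
Ephb1, chr8:111823760-111824009, minus strand: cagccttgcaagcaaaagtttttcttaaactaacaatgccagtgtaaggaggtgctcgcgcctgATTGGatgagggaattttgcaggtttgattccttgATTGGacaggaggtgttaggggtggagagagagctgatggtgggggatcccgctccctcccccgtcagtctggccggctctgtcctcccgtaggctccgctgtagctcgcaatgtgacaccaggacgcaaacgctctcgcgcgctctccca
Robo2, chr11:26526413-26526662, minus strand: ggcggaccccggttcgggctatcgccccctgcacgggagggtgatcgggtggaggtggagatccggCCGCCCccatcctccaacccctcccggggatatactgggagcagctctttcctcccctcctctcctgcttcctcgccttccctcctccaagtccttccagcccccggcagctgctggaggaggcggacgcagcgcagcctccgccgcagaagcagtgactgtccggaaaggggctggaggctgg
Efna1, chr2:176986822-176987071, minus strand: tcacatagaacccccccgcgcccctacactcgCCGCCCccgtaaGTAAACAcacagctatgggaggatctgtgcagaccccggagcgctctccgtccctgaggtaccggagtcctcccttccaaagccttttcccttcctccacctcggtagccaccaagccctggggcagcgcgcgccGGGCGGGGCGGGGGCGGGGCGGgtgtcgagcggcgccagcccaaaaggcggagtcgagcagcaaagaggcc

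The window of Ephb1 held 2 CCAAT boxes, with first bases at -186 and -151 from the start, and none of the other motifs. That of Robo2 held 1 GC box, at -184. That of Efna1 held 1 FOXO match, at -206, and 5 GC boxes. Among all 33469 promoter windows of the same length, 34.0% held a CCAAT box, 30.5% a GC box, 13.9% an ETS core, 12.9% a TATA box and 3.21% a FOXO match. CCAAT and GC boxes were thus common among promoters, and a FOXO match was not. Windows were found for 7 of the 8 genes, 8 windows in all. The probe sequences themselves are not printed here.

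Probe sets dimmer on average than the 40th percentile of their array type were not tested, which left 7 of the 13. These 7 read 5 genes, with 2 probe sets on array A (Efna1 and Slit3) and 5 on array B (Ephb1, and a pair each for Slit2 and Robo2). Differences below are in log2(signal + 16) units after quantile normalisation, with the standard error (SE) of the model over 9 arrays. Group levels are mean ± SD with n = 3. Adding 16 to each signal shrinks the differences of dim probe sets. In pooled rings, fewer cells of a type and less RNA per cell cannot be told apart.

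Ephb1, an Eph receptor of the B class, had the largest spread between groups. Probe set 1392215_at on array B read 135.6, 95.2 and 400.9 after VEGF, 41, 24.2 and 13.6 (35.9 when scaled) after Ang1, and 175.6, 183.9 and 189.6 in untreated RNAs. All 3 Ang1 signals lay below every VEGF and every untreated signal, while the VEGF signals lay on both sides of the narrow untreated range. The normalised levels were 7.55 ± 0.91 after VEGF, 5.39 ± 0.43 after Ang1 and 7.60 ± 0.09 in untreated RNAs.

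The Ephb1 difference was -2.21 ± 0.47 for Ang1 minus untreated and 2.17 ± 0.47 for VEGF minus Ang1, both against dim Ang1 signals. For VEGF minus untreated it was -0.05 ± 0.47, within the spread of the VEGF RNAs. Ephb1 lay at the 43.3 percentile of mean level, close to the limit, and its Ang1 mean was below the limit of 6.71 log2 units. It was thus tested through its VEGF and untreated signals. When VEGF replicate 3 was left out it no longer passed, and no difference was computed there. The size followed the constant added to the signal, with -2.81 at 1 and -1.42 at 64 for Ang1 minus untreated, so no fold is given.

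Slit2, a secreted Slit ligand, was read by 2 probe sets on array B, both bright. Probe set 1382685_at read 2055.2, 1243.4 and 975.9 after VEGF, 659, 292.6 and 211.6 (558.1 when scaled) after Ang1, and 1381.6, 1509.2 and 1289 in untreated RNAs. All Ang1 signals lay below all others, and the VEGF range enclosed the untreated one. Levels were 10.17 ± 0.39 after VEGF, 8.69 ± 0.82 after Ang1 and 10.16 ± 0.08 in untreated RNAs. The difference was -1.47 ± 0.42 for Ang1 minus untreated and 1.48 ± 0.42 for VEGF minus Ang1, against 0.01 ± 0.42 for VEGF minus untreated.

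The other Slit2 probe set, 1395986_at, read 1292, 955.8 and 1619.1 after VEGF, 1093, 362.7 and 188.4 (496.9 when scaled) after Ang1, and 1485.1, 725.8 and 2332.6 in untreated RNAs. Here Ang1 replicate 1 lay among the other groups, and the groups overlapped. The differences were -1.15 ± 0.54 for Ang1 minus untreated, 1.07 ± 0.54 for VEGF minus Ang1 and -0.08 ± 0.54 for VEGF minus untreated. Both Slit2 probe sets were thus lower on average after Ang1, and of the pair 1382685_at alone had all Ang1 values below those of the other groups. Without Ang1 replicate 2, the lowest RNA in both after normalisation, Ang1 minus untreated was -1.06 for 1382685_at and -0.76 for 1395986_at. Ang1 replicate 1 weighed the other way on 1395986_at, with -1.69 without it.

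Robo2, a Slit receptor, was read by 2 probe sets on array B that did not show the same pattern. Probe set 1379693_at read 147.2, 120.2 and 107.4 after VEGF, 140.4, 106.2 and 56.5 (149.0 when scaled) after Ang1, and 213.9, 365.9 and 188.3 in untreated RNAs. All signals of both treated groups lay below all untreated signals, and the treated groups overlapped. Levels were 7.07 ± 0.36 after VEGF, 6.91 ± 0.39 after Ang1 and 7.97 ± 0.47 in untreated RNAs. The difference was -0.90 ± 0.36 for VEGF minus untreated, 0.535 times the untreated level. It was -1.06 ± 0.36 for Ang1 minus untreated, 0.480 times. Of the 9166 probe sets tested on array B, 58 were lower in the first and 611 in the second. Robo2 had been listed for its low signal after VEGF, so its rank is not read as support. VEGF minus Ang1 was 0.16 ± 0.36.

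Probe set 1379750_at of the same gene read 117.4, 152.3 and 186.7 after VEGF, 181.8, 249.2 and 44.8 (118.2 when scaled) after Ang1, and 107.9, 182.1 and 128.3 in untreated RNAs. Its groups overlapped throughout. Its differences were 0.10 ± 0.32 for VEGF minus untreated, 0.04 ± 0.32 for Ang1 minus untreated and 0.06 ± 0.32 for VEGF minus Ang1. The lower Robo2 signal in treated rings therefore rests on 1 of 2 probe sets of similar rank in mean level, at the 55.2 and 54.1 percentiles. Untreated replicate 2, one of the RNAs that stood apart, was the highest of the 9 on 1379693_at. Without both such RNAs the 1379693_at difference was -0.63 for VEGF minus untreated and -0.57 for Ang1 minus untreated.

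Slit3, another secreted Slit, was read on array A by 1368920_at. It read 217, 382.4 and 560.7 after VEGF, 250, 409.8 and 446.2 after Ang1, and 173.8, 202.1 and 422.8 in untreated RNAs. Untreated replicate 3 reached into both treated groups, so that all groups overlapped. The differences were 0.43 ± 0.42 for VEGF minus untreated, 0.41 ± 0.42 for Ang1 minus untreated and 0.02 ± 0.42 for VEGF minus Ang1. Between RNAs of the same replicate number, normalised Slit3 was higher than untreated in 3 of 3 pairs after VEGF (0.25, 0.64 and 0.42) and in 3 of 3 after Ang1 (0.42, 0.80 and 0.02). With the replicate block the SE was 0.28, and neither difference was called (limma, adjusted p = 1.00 and 0.845). The VEGF minus untreated difference was 0.12 without VEGF replicate 3 and 0.77 without VEGF replicate 1.

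Efna1, a ligand of the A class held by a lipid anchor, had its brighter probe set 1372844_at on array A just above the limit, at the 45.9 percentile. It read 62, 78.3 and 170.7 after VEGF, 71.5, 181.2 and 105.2 after Ang1, and 86.7, 68.5 and 90.9 in untreated RNAs. The untreated signals lay inside the VEGF range and, but for replicate 2, inside the Ang1 range. The differences were 0.05 ± 0.35 for VEGF minus untreated, 0.09 ± 0.35 for Ang1 minus untreated and -0.03 ± 0.35 for VEGF minus Ang1.

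**Figure D1:**
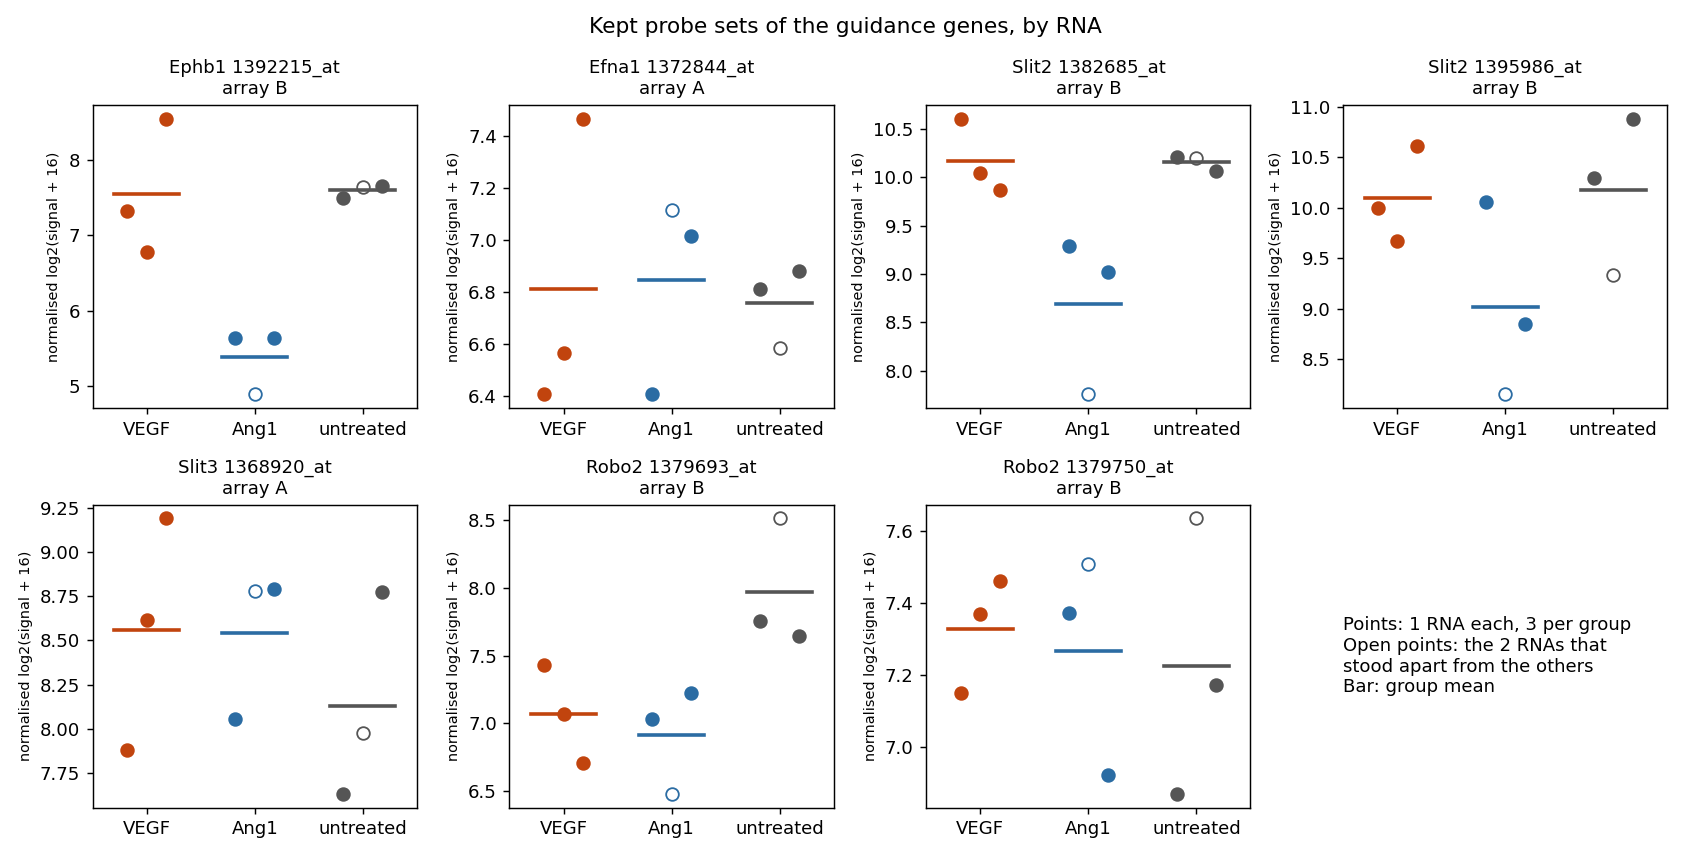
Normalised log2(signal + 16) of the 7 tested probe sets in each RNA, with the groups VEGF, Ang1 and untreated on the x axis, a bar at each group mean, and open points for Ang1 replicate 2 and untreated replicate 2. Ephb1 and Slit2 1382685_at are low in all 3 Ang1 RNAs, Robo2 1379693_at is low in all 6 treated RNAs, and the other 4 probe sets overlap between groups.

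The plot of levels by RNA shows that the Ang1 values of Ephb1 keep their distance with and without the open points, while the upper untreated value of Robo2 1379693_at is an open point. Set against all tested probe sets, these counts differ by comparison. Calls used limma with Benjamini-Hochberg adjustment over the array type. At an adjusted p below 0.05 the share called was 0% in each of the 3 comparisons on array A (VEGF minus untreated 0%, Ang1 minus untreated 0%, VEGF minus Ang1 0%) and likewise 0% on array B, members included. For the members the lowest adjusted p over all was 0.466 (limma, Ephb1, Slit2 and Robo2, Ang1 minus untreated). An exact test of 3 against 3 RNAs cannot go below p = 0.1.

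On array B, 1 of the 5 member probe sets had an unadjusted p below 0.05 for VEGF minus untreated, against 0.72% of all, 66 probe sets. The same probe set, Robo2 1379693_at, was the 1 whose VEGF values all lay below the untreated ones, which 3.91% of all did, and 6.44% had groups that did not overlap in either direction. Leaving out VEGF replicate 2, VEGF replicate 3 or untreated replicate 2 brought this unadjusted count of members to 0. For Ang1 minus untreated, 3 of 5 had an unadjusted p below 0.05, against 10.5% (960 probe sets), and 3 of 5 lay wholly below the untreated values, against 8.76%, with 17.5% separated in either direction. For VEGF minus Ang1 it was 2 of 5, against 8.48% (777 probe sets), and 2 of 5 lay wholly above the Ang1 values, against 6.01%, with 15.5% in either direction. Since the genes were chosen with such values known, these counts are no evidence about the families. Ephb1, counted in both comparisons with Ang1, passed the intensity limit through its VEGF and untreated signals. That limit thus favoured its being counted as low after Ang1. The comparisons also share RNAs, the untreated ones between VEGF and Ang1 and the Ang1 ones between the second and the last comparison.

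On array A, 0 of the 2 tested member probe sets had an unadjusted p below 0.05 in any comparison (limma). The share over all probe sets there was 1.65% (157) for VEGF minus untreated, 3.17% (302) for Ang1 minus untreated and 1.99% (189) for VEGF minus Ang1. Neither had groups that did not overlap, which 8.45%, 9.11% and 8.07% of all had in the same order of comparisons. The median difference of the 5 array B probe sets was -0.05 for VEGF minus untreated, -1.15 for Ang1 minus untreated and 1.07 for VEGF minus Ang1, where all tested probe sets had -0.01, -0.01 and 0.04. Without both RNAs that stood apart, the members with an unadjusted p below 0.05 on array B were 0 for VEGF minus untreated, 3 for Ang1 minus untreated and 2 for VEGF minus Ang1 (limma, 0 adjusted calls). With the replicate number as a block the counts were 1, 4 and 3, the added probe set being Slit2 1395986_at, and 0 adjusted calls. The block moved the unadjusted count over all array A probe sets to 294 for VEGF minus untreated and 408 for VEGF minus Ang1.

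**Figure D2:**
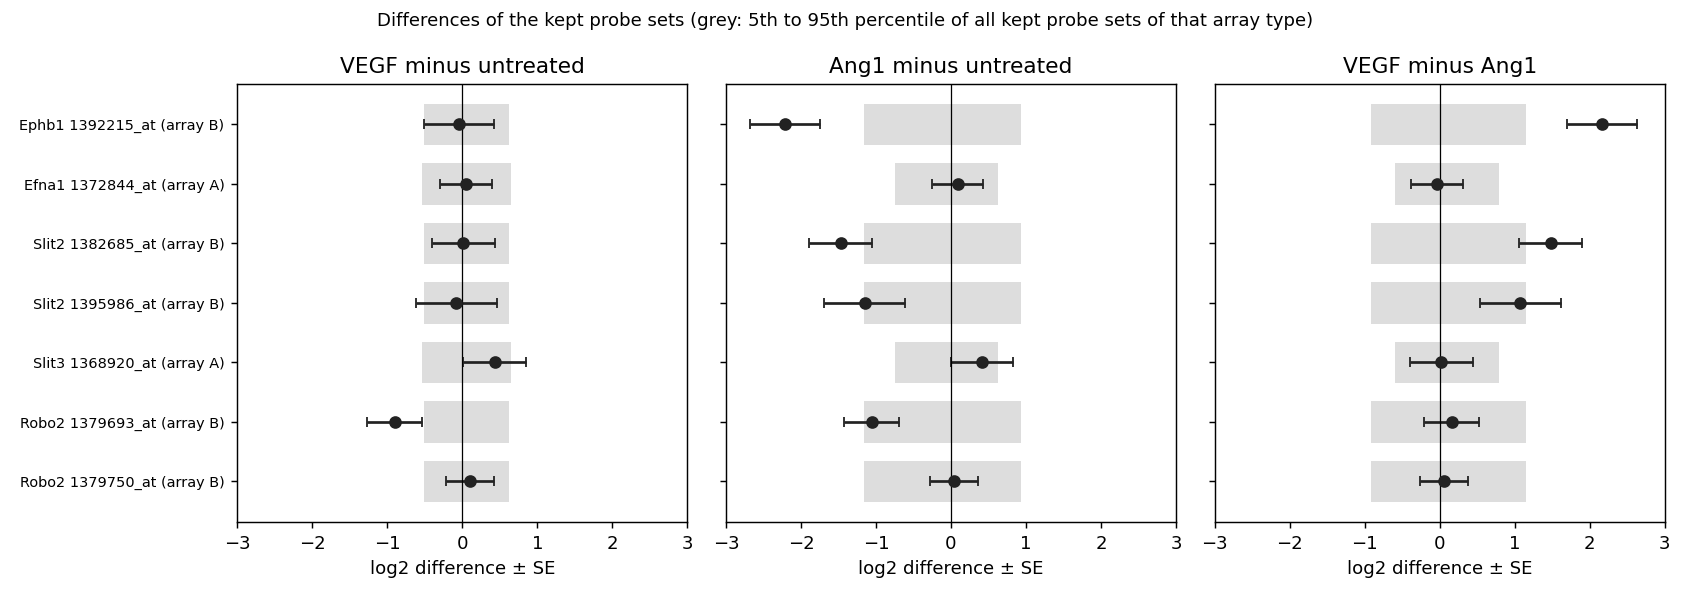
Log2 difference ± SE (points and bars) of the 7 tested probe sets for VEGF minus untreated, Ang1 minus untreated and VEGF minus Ang1, with the range from the 5th to the 95th percentile of all tested probe sets of the array type in grey. For VEGF minus untreated only Robo2 1379693_at (-0.90) lies outside the grey range, and for Ang1 minus untreated Ephb1 (-2.21) and Slit2 1382685_at (-1.47) do.

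The plot of differences shows both Slit2 probe sets on the same side in the comparisons with Ang1 and the Robo2 pair apart in the comparisons with untreated RNAs. How far probe sets of 1 gene followed each other over the 9 RNAs was set out for all 8 pairs, of which 2 had both probe sets tested. The Slit2 pair on array B had r = 0.74 (exact permutation p = 0.022, 0.176 adjusted over the 8 pairs) and rho = 0.43 (exact permutation p = 0.250, 0.617 adjusted). Without Ang1 replicate 2 and untreated replicate 2 r was 0.53 (exact permutation p = 0.218, 0.582 adjusted). Ang1 replicates 2 and 3 were the farthest from the median, and without them r was -0.14, so the relation rests on those RNAs. The Robo2 pair on array B had r = -0.09 (exact permutation p = 0.813) and rho = -0.33 (exact permutation p = 0.385). Without Ang1 replicate 2 and untreated replicate 2, which were also the farthest from the median, r was -0.76 (exact permutation p = 0.05, 0.4 adjusted). The other 6 pairs held at least 1 dim probe set, and 4 of the 8 correlations were negative, from -0.36 to 0.74 in all. None of the 8 pairs had an adjusted p below 0.05, and probe sets of 1 gene can read different transcripts or different ends of 1 transcript. The permutations shuffled the RNAs without regard to group, so differences between groups enter these correlations and their p-values.

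**Figure D3:**
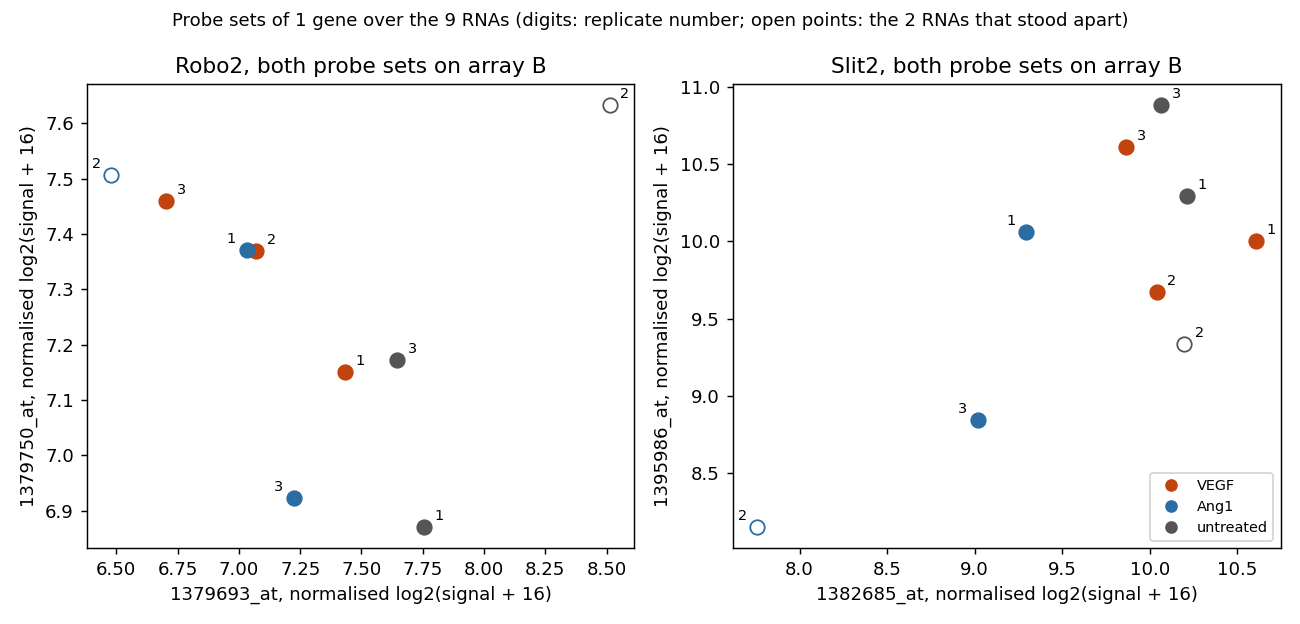
Normalised log2(signal + 16) of the 2 array B probe sets of Robo2 (left) and of Slit2 (right) against each other, 1 point per RNA with its replicate number, coloured by group, and open for Ang1 replicate 2 and untreated replicate 2. In Robo2 the 7 filled points fall from upper left to lower right (r = -0.76), and in Slit2 the lowest point on both axes is Ang1 replicate 2.

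The plot of paired probe sets shows the untreated RNAs to the right of all treated ones along the Robo2 1379693_at axis, VEGF and Ang1 overlapping there, and all groups overlapping along the 1379750_at axis. The remaining 6 probe sets, all on array A, lay below the limit and are given by signal only. Robo1, the Slit receptor next to the limit at the 38.7 percentile (1369338_at), read 41.5, 52.4 and 79 after VEGF, 55.5, 274.9 and 49.5 after Ang1, and 40.7, 110.7 and 46.6 in untreated RNAs. Its highest signals were those of the RNAs that stood apart, and the groups overlapped.

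Efnb1, a transmembrane ligand of the B class, had 2 dim probe sets. Probe set 1369476_at read 11.7, 16 and 30.6 after VEGF, 41.5, 21.3 and 6 after Ang1, and 27.9, 49.7 and 24.4 in untreated RNAs. Its normalised VEGF values, 4.87 to 5.49, all lay just below the untreated ones, 5.50 to 6.18, although the deposited signals overlapped. Probe set 1374403_at read 44.6, 59.3 and 47.6 after VEGF, 54.7, 25.7 and 42.2 after Ang1, and 52.1, 6.5 and 30.9 in untreated RNAs, with overlap throughout. The 2 Efnb1 probe sets therefore gave no common order of groups.

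The dim array A probe sets of Slit2 (1369346_at, 2.9 to 25.4), Robo2 (1382632_at, 1.4 to 24.1) and Efna1 (1398273_at, 6.5 to 37.3) were dim in all 9 RNAs. The groups overlapped in Slit2 and Robo2. In Efna1 the deposited VEGF signals, 9.6 to 15.7, lay below the Ang1 ones, 16.5 to 37.3, and after normalisation these groups overlapped. The array A probe sets of Slit2 and Robo2 thus gave no second reading of the array B differences.

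**Figure D4:**
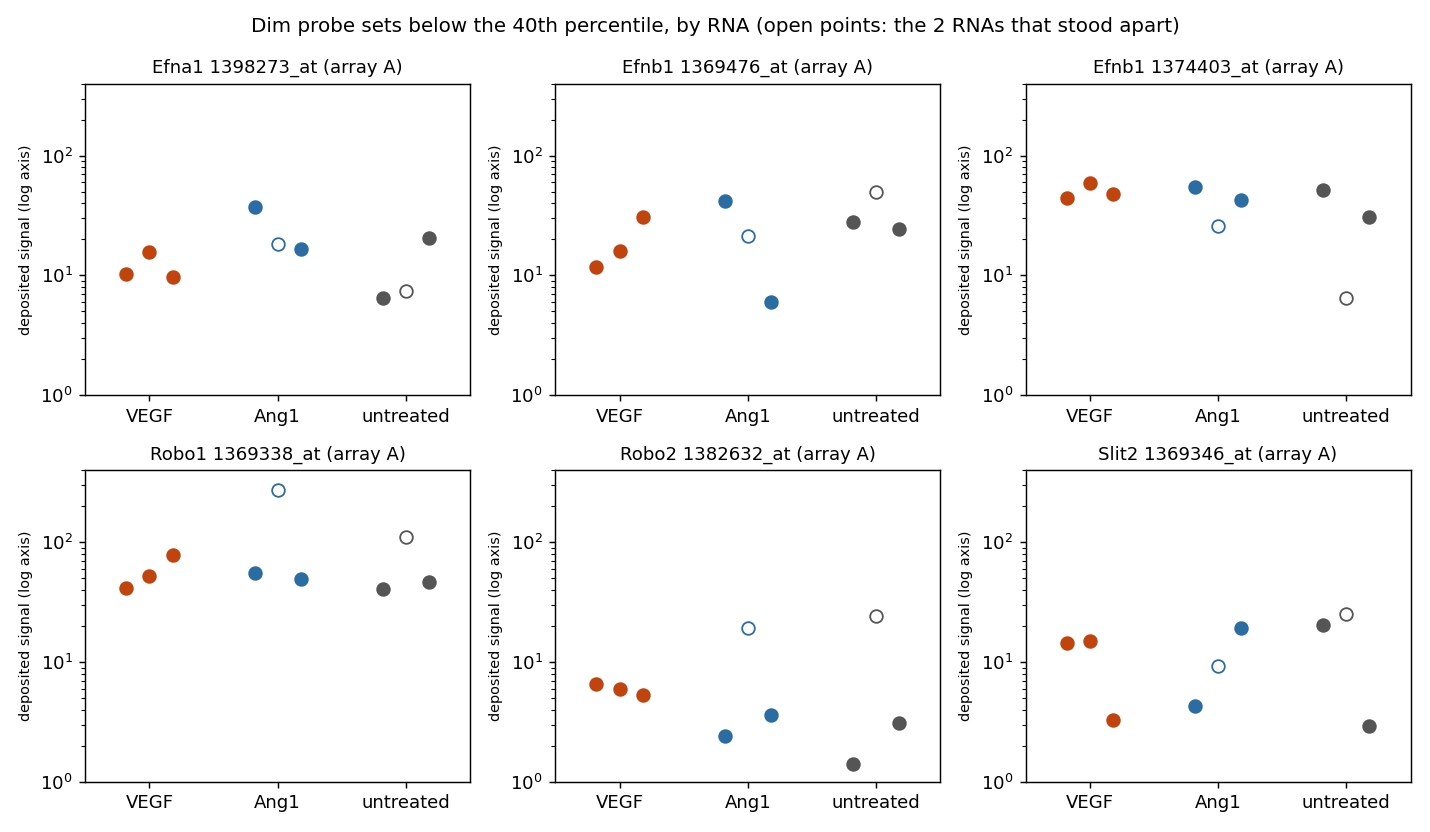
Deposited signal on a log axis of the 6 probe sets below the limit in each RNA, by group, with open points for Ang1 replicate 2 and untreated replicate 2. All 3 groups overlap in 5 panels, in Efna1 the VEGF points lie below the Ang1 points, and Ang1 replicate 2 of Robo1 (274.9) is the highest point.

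The plot of dim probe sets shows wide spreads within groups. Next the other genes of these pathways were counted, by the brightest tested probe set of each gene, in lists drawn up with earlier results of these data known. None passed the adjusted threshold (limma, 0 calls in each list, comparison and array type), so what follows gives values only. Several genes are named because their groups did not overlap. Of all probe sets on array A, 8.45% did so for VEGF minus untreated, 9.11% for Ang1 minus untreated and 8.07% for VEGF minus Ang1. On array B the shares were 6.44%, 17.5% and 15.5% in the same order. The named genes are therefore not read as a result about the lists. Of 18 other Eph receptors and ephrins, array B had 6 that were tested and array A had 3 (Epha2, Epha4 and Ephb4). The array A genes differed by at most 0.38 in size, with Epha4 at -0.38 ± 0.33 for VEGF minus untreated. Ephb4, the venous partner of ephrin-B2, was at 0.12 ± 0.33 for VEGF minus untreated and -0.06 ± 0.33 for Ang1 minus untreated.

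On array B, 5 of the 6 other Eph and ephrin genes were higher and 1 lower for Ang1 minus untreated, with a median of 0.61. Ephb1, the only Eph or ephrin gene among the members tested on array B, was at -2.21 ± 0.47. The receptor gene Epha6 was at 0.86 ± 0.37 and the ligand gene Efna2 at 0.66 ± 0.35, both with all Ang1 values above all untreated ones. Of all array B probe sets, 17.5% were separated in either direction there. Ephb3, a B class receptor, was the 1 below 0, at -1.16 ± 0.77, and overlapped. For VEGF minus Ang1, Efna2 was at -0.30 ± 0.35, without overlap. Of the 6, 1 had an unadjusted p below 0.05 in Ang1 minus untreated, against 10.5% of all probe sets. Ephb1 thus lay on the other side of 0 from 5 of the 6 and on the same side as Ephb3. Of the 5, Ephb2 (0.32 ± 0.36) and Ephb6 (0.55 ± 0.61) had SEs above their differences, and Efnb3 (0.79 ± 0.48) overlapped. Ephb1 and the other members were chosen with earlier results known, so the contrast is a description only.

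Among 22 partners of Eph and ephrin signalling, array A had 15 that were tested and array B had 7. Nck2, an adaptor protein, was at -0.43 ± 0.27 and the kinase gene Abl1 at 0.40 ± 0.25 for Ang1 minus untreated, each without overlap. For VEGF minus Ang1, Pdzrn3, a ubiquitin ligase, was at 0.28 ± 0.26 and Rhoa, a small GTPase of the cytoskeleton, at -0.26 ± 0.22. Their SEs are close to the differences themselves. On array B no partner separated the groups.

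Among 16 other Slit and Robo genes and partners, array A had 10 that were tested and array B had 6. Arhgap39, a GTPase regulator downstream of Robo, was at -0.50 ± 0.31 and Gpc1, a heparan sulphate proteoglycan that binds Slit, at -0.89 ± 0.45 for VEGF minus Ang1, each without overlap. No gene of this list separated treated from untreated RNAs. For Ang1 minus untreated 8 of the 10 array A genes were above 0, with a median of 0.20, and 1 of the 6 array B genes was, with a median of -0.12.

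Of 25 genes of other guidance families (netrins, neuropilins, plexins and semaphorins), array A had 11 that were tested and array B had 9. The receptor gene Neo1 was below all untreated values in both treated groups, at -0.40 ± 0.33 for VEGF and -0.97 ± 0.33 for Ang1. Plxna2, a semaphorin co-receptor, was above them after Ang1 (0.82 ± 0.35) and also separated VEGF from Ang1 (-0.89 ± 0.35). The semaphorin genes Sema6d (-0.74 ± 0.42, Ang1 minus untreated), Sema6a on array B (0.26 ± 0.43, VEGF minus untreated) and Sema3e (-0.19 ± 0.32, VEGF minus Ang1) and the plexin gene Plxna3 (-0.83 ± 0.44, VEGF minus Ang1) did not overlap either. The array A probe set of Sema6a went the other way, at -0.27 ± 0.32 for VEGF minus untreated, and overlapped. Unc5b stands in this list and in the Slit and Robo list, and Cdc42 in the Eph and the Slit and Robo lists.

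**Figure D5:**
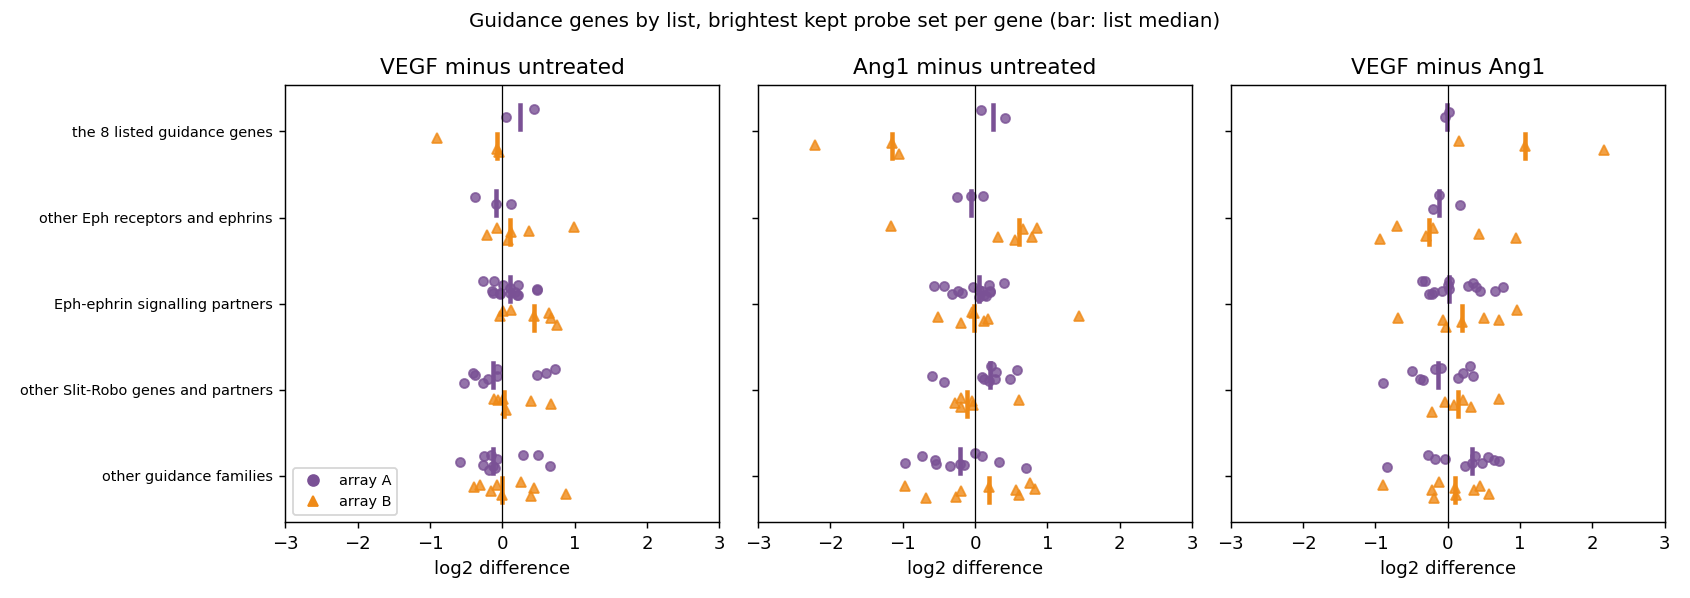
Log2 difference of each gene (points, brightest tested probe set) for VEGF minus untreated, Ang1 minus untreated and VEGF minus Ang1, in the 8 listed genes and 4 lists of other guidance genes, array A as circles and array B as triangles, with a bar at the median. For Ang1 minus untreated the listed genes tested on array B (Ephb1, Slit2 and Robo2) have a median of -1.15, which is the value of Slit2. The other Eph receptors and ephrins on array B have 0.61.

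The plot of gene lists shows Ephb1 on array B apart from the genes of the other lists in the comparisons with Ang1, which its choice favours. For Ang1 minus untreated, Slit2 (-1.15) and Robo2 (-1.06) lay beside Ephb3 (-1.16). For VEGF minus Ang1, Slit2 (1.07) lay near Tiam1 (0.95) and Ephb3 (0.94), and Robo2 (0.16) lay among the other genes. Cell type markers were read in the same RNAs. On array B the endothelial markers tested there, Tek and Erg (2 of 11), had a mean level of 9.59 to 10.36 after VEGF, 8.70 to 9.94 after Ang1 and 10.02 to 10.45 in untreated RNAs. All Ang1 RNAs lay below the untreated ones, as Ephb1 and Slit2 1382685_at did, and the part of endothelial content in those values was not tested. On array A 9 of 11 endothelial markers were at 7.77 to 8.18 after VEGF, 6.89 to 8.11 after Ang1 and 6.998 to 7.997 in untreated RNAs, with overlap. Erg itself was at 1.13 ± 0.50 for Ang1 minus untreated by its array A probe set and at -0.82 ± 0.47 by its array B probe set.

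Of the smooth muscle markers 7 of 9 were tested on array A, at 8.14 to 8.45 after VEGF, 7.64 to 8.63 after Ang1 and 7.69 to 9.02 in untreated RNAs. One of them, Pln, which encodes a regulator of the muscle calcium pump, lay below all untreated values in both treated groups, at -1.36 ± 0.27 for VEGF and -1.23 ± 0.27 for Ang1 (limma, adjusted p = 1.00 and 0.953). The endothelial receptor gene Tek on array B did so too, at -0.41 ± 0.35 for VEGF and -0.74 ± 0.35 for Ang1. Pln and Tek thus lay below the untreated values in both treated groups, as Robo2 1379693_at did, but other markers of their lists did not all do so. Of the 7 smooth muscle markers on array A, 2 were higher and 5 lower for VEGF minus untreated. For Ang1 minus untreated 1 was higher and 6 lower. For the 9 endothelial markers there, the counts were 7 and 2 after VEGF, and 4 and 5 after Ang1. The part of smooth muscle or endothelial content in Robo2 1379693_at was not tested. Pericyte markers (6 of 6) were at 8.38 to 8.54 after VEGF, 8.30 to 8.54 after Ang1 and 8.26 to 8.65 in untreated RNAs. Fibroblast markers (8 of 8) were at 10.96 to 11.16 after VEGF, 10.75 to 11.13 after Ang1 and 10.87 to 10.99 in untreated RNAs. The means of the smooth muscle, pericyte and fibroblast lists each overlapped between groups. So did that of macrophage markers (7 of 8), at 8.83 to 9.11 after VEGF, 8.50 to 8.88 after Ang1 and 7.96 to 9.05 in untreated RNAs. The lymphocyte marker Ms4a1, 1 of 4 on array B, was at 7.63 to 8.20 after VEGF, 8.07 to 9.34 after Ang1 and 6.73 to 7.72 in untreated RNAs, so that the Ang1 values lay above the untreated ones. Its part in the Ang1 differences was not tested. Schwann cell markers on array A (2 of 7) were at 6.56 to 6.94 after VEGF, 6.58 to 8.07 after Ang1 and 6.64 to 7.22 in untreated RNAs. The mesothelial marker Msln (1 of 4) was at 6.44 to 7.04 after VEGF, 5.51 to 7.87 after Ang1 and 6.89 to 7.89 in untreated RNAs, again with overlap. On array B 2 of 9 smooth muscle markers were tested, Des and Myocd. Their mean was at 7.54 to 7.94 after VEGF, 7.70 to 8.03 after Ang1 and 7.59 to 7.94 in untreated RNAs. For Ang1 minus untreated Des was at 0.74 ± 0.41, with all Ang1 values above the untreated ones. Myocd was at -0.66 ± 0.38, with overlap. Pdgfrb (1 of 6 pericyte markers) and Mrc1 (1 of 8 macrophage markers) also overlapped between groups on array B.

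The genes whose levels were most alike over the 9 RNAs were sought among the brightest probe sets of the same array type. For Ephb1 they were Smim1 and Tmem177 (r = 0.94 each, and 0.90 and 0.97 without the 2 RNAs that stood apart). For Robo2 1379693_at they were Sntg2 (0.94, and 0.88 without these RNAs) and Foxf1 (0.93, and 0.82). For Slit2 1395986_at they were Agtrap and Psmd12 (0.95 each, and 0.91 and 0.95). For Slit3 they were Sptan1 and Ltbp2 (0.92 each, and 0.93 each). For Efna1 they were Golgb1 and Coro7 (0.94 each, and 0.94 and 0.96). These are the highest of 4034 genes searched on array B and 7176 on array A, so the search favours high values, and the points share their arrays and groups.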

How the data were processed

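Each deposited value is a linear intensity per probe set, from MAS5 according to the submitters' processing notes. The MAS5 version was not given in the sources used here. From these, log2(signal + 16) was computed and quantile normalised within an array type, because the range of array medians, 0.76 (array A) and 1.58 (array B) in log2 units, exceeded 0.3. After removal of 57 control probe sets, 9520 of 15923 (array A) and 9166 of 15333 (array B) probe sets with a mean in the upper part, from the 40th percentile on, remained. Detection calls were not used, and the number of arrays limits the precision.

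Genes were named from platform annotation, where array A had 12789 probe sets with 1 symbol, 312 with several and 2822 with none. Array B had 7570, 100 and 7663 of these. The model was limma 3.58.1 (R 4.3.3), a mean per group over 9 arrays with an intensity trend, and Benjamini-Hochberg adjustment per array type. It was tested on simulated data. Named genes were the members, list genes without overlap (at most 4 per list and comparison) and the 2 most alike genes per member. The members and lists were chosen with earlier results of these data known.

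The labels do not tie replicate numbers to animals, and p-values measure the spread between these RNAs. Per the design text each of 3 animals gave 1 RNA to each group. Deviations of same-numbered RNAs correlated above 0.1 in 14 of 18 pairs, from -0.21 to 0.49, and in every pair with an untreated RNA. Alternatives were other normalisations, pseudocounts and filters, array weights, a replicate block and leaving out RNAs.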

Additional observations from a re-analysis of the deposited data

How the results depend on the processing

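Counts past the adjusted threshold (limma) were 0 on both array types in the reported setting and under leaving out each RNA (0 to 0), both RNAs that stood apart, other pseudocounts, median centring, no filter, the replicate block (0 calls, and unadjusted counts on array B of 98 for VEGF minus untreated, 979 for Ang1 minus untreated and 887 for VEGF minus Ang1) and scaling each array to 250 first, a setting chosen after seeing the data. With array weights, Ang1 minus untreated had 6 calls on array A and 2 on array B, and VEGF minus Ang1 had 24 and 8, no member among them. Without renewed normalisation array B gave 117 calls for Ang1 minus untreated and 25 for VEGF minus Ang1. That setting carries the other scale of Ang1 replicate 3, and the median of all probe sets moved to -0.29 and 0.35. Slit2 1382685_at was called there (-1.96, adjusted p = 0.0294 by limma). Median centring moved the medians on array B to -0.20 for Ang1 minus untreated and 0.22 for VEGF minus Ang1. On array A it moved them to -0.23 and 0.15. Unadjusted counts over array B depended on single RNAs. For VEGF minus untreated they ran from 42 without untreated replicate 2 to 153 without Ang1 replicate 2. For Ang1 minus untreated they ran from 590 without untreated replicate 2 to 1704 without Ang1 replicate 3, and for VEGF minus Ang1 from 360 without VEGF replicate 2 to 1581 without Ang1 replicate 3. On array A the ranges were 86 to 364, 189 to 590 and 119 to 575 for these comparisons.

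The 21 member differences were each recomputed under 17 or 18 alternative settings, which gave 375 values in all. Of these values 6 moved by over 1 SD and 34 changed sign. The Ang1 minus untreated differences of Ephb1, both Slit2 probe sets and Robo2 1379693_at, and the VEGF minus untreated difference of the last, never changed sign. With array weights Slit2 1395986_at was at 0.25 for VEGF minus Ang1. The differences of Robo2 1379750_at and Efna1 changed sign when single RNAs were left out, the causes not being tested. So did VEGF minus untreated of Ephb1 and of both Slit2 probe sets, and VEGF minus Ang1 of Robo2 1379693_at and Slit3. Where VEGF replicate 3 was left out Ephb1 was not tested.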
